A study of Homo sapiens with 4 samples.

Results

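The proteasome genes of BEAS-2B cells were taken from a table of raw read counts by symbol: every PSMA, PSMB, PSMC, PSMD, PSME, PSMF and PSMG gene, with POMP and ADRM1. This gave 50 genes of 39634 with values, after 38 matching names that ended in P and digits (the form used for pseudogenes) had been left out, and 46 of the 50 passed the filter on low counts. BEAS-2B is an established, immortalised line of human bronchial epithelial cells, and all 4 libraries came from cells grown in N2B27 medium. The cells carried a control hairpin (shControl, 2 libraries) or a hairpin against Fer (shFer, genotype Fer knockdown, 2 libraries), where Fer is a cytoplasmic tyrosine kinase. Replicates are numbered, but nothing says they were separate cultures: the p-values below cover the spread between these libraries, which may be technical. The labels also do not say whether each line was a pool or a clone.

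The proteasome is the protease that degrades most ubiquitin-tagged proteins in the cytosol and nucleus. Its barrel-shaped core is built of stacked alpha and beta rings, and the cutting sites lie on the beta subunits PSMB5, PSMB6 and PSMB7. Interferon induces PSMB8, PSMB9 and PSMB10, which take the places of PSMB5, PSMB6 and PSMB7 to form the immunoproteasome. A regulatory particle caps the core: its base unfolds substrates with a ring of ATPases (PSMC genes), and its lid removes ubiquitin. When proteasome activity is short, the transcription factor NFE2L1 raises the subunit genes through antioxidant-response-type elements in their promoters.

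To show what such elements look like in these genes, promoters of the RefSeq table (GRCh38.p14) were searched on both strands for TGACNNNGC in the 250 bases before each gene start. The table held 44 of the 50 members, and 14 of them carried the motif (31.8%), against 13.2% of all 27305 genes in the table. Below are 5 windows in which no annotated exon falls, from 1 component of the core, 2 of the lid, 1 receptor of the base and 1 activator, written 5′ to 3′ on the gene's strand with the motif in capitals. A match describes the letters and is not evidence of binding.
PSMB3, chr17:38752621-38752661, plus strand: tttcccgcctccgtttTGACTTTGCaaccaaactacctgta
PSMD3, chr17:39980754-39980794, plus strand: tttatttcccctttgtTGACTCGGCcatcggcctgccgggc
PSMD12, chr17:67366718-67366758, minus strand: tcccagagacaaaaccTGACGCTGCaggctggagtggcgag
ADRM1, chr20:62302743-62302783, plus strand: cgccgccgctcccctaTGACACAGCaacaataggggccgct
PSME1, chr14:24136092-24136132, plus strand: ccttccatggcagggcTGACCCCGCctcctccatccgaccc

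The targeted gene did not match its label. FER had 16.3 and 21.2 CPM (counts scaled to library size with TMM factors) in the control libraries and 17.8 and 20.1 CPM in those labelled shFer (log2 fold change 0.02 ± 0.17 SE, adjusted p = 0.976). Its groups overlapped, and directions below therefore refer to the label shFer, not to a lower FER level. Library totals ran from 21422976 to 25169713 counts. The mitochondrial chromosome took 16.9% and 19.4% of the control counts and 9.62% and 9.37% of those labelled shFer, and the control libraries varied more (median SD of log2 CPM over genes of 0.186 against 0.0835). Of the 7 epithelial markers, the summed level was 2427 to 3096 CPM in control and 2653 to 2683 CPM in the libraries labelled shFer, nearly all of it from KRT8 and KRT18. Of the 5 that were tested 0 passed, but KRT17, CDH1 and EPCAM had both libraries labelled shFer above both controls (log2 fold changes 0.77, 0.45 and 0.46, adjusted p = 0.0552, 0.239 and 0.426). Of all tested genes, 25.8% had this order of libraries and 0.646% passed. KRT17, a basal keratin, had 476 to 1161 counts, while the basal keratins KRT5 and KRT14 had at most 12. Leukocyte markers, of interest because leukocytes hold much immunoproteasome, summed to 16.7 to 25.2 CPM in control and 16.5 to 17.4 CPM in the libraries labelled shFer. Nearly all of that was CD14 (343 to 506 counts); CD3E was listed at 0, and PTPRC had 0 to 6 counts. HLA-DRA was also listed at 0, but it lies in the region of low counts around PSMB8 and PSMB9 described below. The 5 fibroblast markers summed to 106 to 117 CPM in control and 89.9 to 92.6 CPM in the libraries labelled shFer, nearly all of it from COL1A1 and PDGFRB, and 0 of the 3 tested passed. COL1A1 was at -0.46 (adjusted p = 0.112) and PDGFRB at 0.01, while COL3A1 was at 1.39 (adjusted p = 0.248) and PDGFRA had 3 and 1 counts in control against 10 and 7. The endothelial markers VWF and CDH5 summed to 1.57 to 2.49 CPM in control and 1.32 to 1.77 CPM in the libraries labelled shFer. The part of these markers in the results below was not tested.

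No proteasome gene passed the test across all genes, although most lay above 0. By edgeR's quasi-likelihood method with Benjamini-Hochberg adjustment, 0 of the 46 tested members passed a threshold of 0.05, where 0.646% of the 15336 genes tested did (0.28% higher and 0.365% lower). At an unadjusted p under 0.05 there were 9 higher and 4 lower members, against 8.95% and 8.77% of all genes in these directions (17.7% in either). The log2 fold change was above 0 for 32 of the 46 members, against 51.9% of all genes, and the median was 0.17 against 0.01. Both libraries labelled shFer lay above both controls for 25 members, against a background of 25.8%, and below both for 9, against 23.4%. No test of these counts against the background was made.

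Which proteasome genes were called rested on the method and on the libraries kept. The size of their changes moved with libraries of both groups. DESeq2 called 3 members higher, where it called 2.1% of all genes higher. Scaling by library totals alone called 3 higher (background 2.58%), no filter on low counts 4 (2.19%) and the replicate number as a block 5 (3.5%). Without control replicate 1 there were 23 higher members (background 14.6%) and 6 lower (14.9%). Without control replicate 2 there were 9 higher (9.49%) and 7 lower (11.1%). Leaving out replicate 1 or replicate 2 of those labelled shFer gave 0 members, with 0.713% and 0.352% of all genes called.

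**Figure D1:**
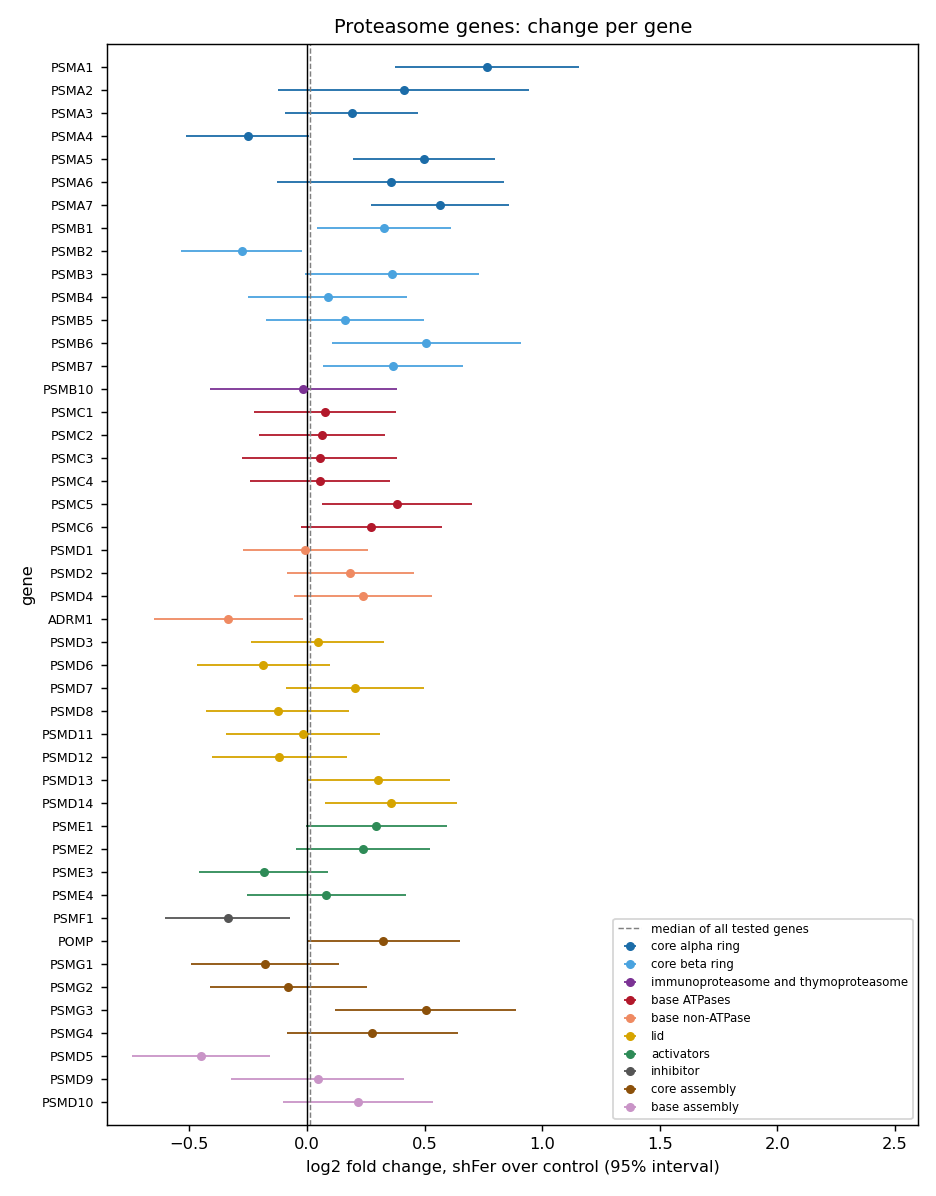
Log2 fold change of each of the 46 tested proteasome genes, libraries labelled shFer over control (x axis), with 95% intervals and colours by role; the dashed line is the median of all tested genes (0.01). The alpha and beta rings of the core lie mostly to the right of the line, with PSMA4 and PSMB2 to the left, while the lid lies on both sides.

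Within the alpha ring, which gates the entrance to the core, 6 of 7 tested genes had both libraries labelled shFer above both controls, as did 25.8% of all tested genes. The median log2 fold change of the ring was 0.41, and 0.25 without replicate 2 of those labelled shFer. PSMA7 had 330 and 266 CPM in the control libraries and 434 and 449 CPM in the libraries labelled shFer. The groups did not overlap, and the difference of 0.57 ± 0.13 in log2 (SE) missed the threshold (adjusted p = 0.0777). PSMA1 had 9.05 and 8.53 CPM in control and 13.7 and 16.1 CPM in the libraries labelled shFer. Its log2 fold change was 0.77 ± 0.18 (SE, adjusted p = 0.0760). Without replicate 1 of those labelled shFer PSMA1 was at 0.87, and without replicate 2 of those at 0.64. PSMA5, chosen after its values were seen, had 85.1 and 70.6 CPM in control against 108 and 112 CPM (log2 fold change 0.50, adjusted p = 0.112). These 3 genes were the ones that DESeq2 called (adjusted p = 0.0102 for PSMA7, 0.0414 for PSMA1 and 0.0441 for PSMA5). PSMA4 stood apart from the rest of the ring. It had 156 and 154 CPM in control and 128 and 132 CPM in the libraries labelled shFer (log2 fold change -0.25 ± 0.12 SE, adjusted p = 0.301). PSMA2, PSMA3 and PSMA6 were at 0.41, 0.19 and 0.36 (adjusted p = 0.407, 0.477 and 0.430). PSMA8, the alpha subunit of testis, was listed at 0 in all 4 libraries.

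The counts of 3 alpha genes, PSMA1, PSMA2 and PSMA6, are uncertain. All 3 are among the 6 with both libraries labelled shFer above both controls. The median of the ring, 0.41, is the value of PSMA2. In GENCODE release 29, 53.2% of the representative transcript of PSMA1, 54.1% of that of PSMA2 and 81.0% of that of PSMA6 is shared with exons of other genes, and such reads cannot be assigned to either without strand or a rule on overlaps. Per length of that transcript, PSMA7 was the highest of the ring, at 267 to 451 RPKM (CPM per kilobase of transcript) over the libraries, and PSMA3 came next at 78.8 to 95.5 RPKM. PSMA4 and PSMA5 followed with mean levels of 32.3 and 25.2 RPKM, and in the libraries labelled shFer their ranges overlapped. PSMA1, PSMA6 and PSMA2 were lowest, with means of 7.88, 7.61 and 2.93 RPKM, and the ranges of PSMA1 and PSMA6 overlapped. The same order was found per deposited gene length.

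The beta ring, which carries the cutting sites, had a median log2 fold change of 0.33, with 6 of 7 genes above 0, and a median of 0.10 without control replicate 2. PSMB6, the caspase-like site, had 118 and 77.7 CPM in the control libraries and 140 and 138 CPM in the libraries labelled shFer. The groups did not overlap, but the 2 controls lay further apart than control replicate 1 did from the libraries labelled shFer, and the value in log2 was 0.51 ± 0.18 (SE; adjusted p = 0.186). Leaving out control replicate 1 gave 0.84 for PSMB6 and leaving out control replicate 2 gave 0.21. PSMB7, the trypsin-like site, had 153 and 136 CPM against 171 and 202 CPM (log2 fold change 0.37 ± 0.13 SE, adjusted p = 0.194; 0.24 without replicate 2 of those labelled shFer). PSMB5, the chymotrypsin-like site and main target of bortezomib, had 136 and 102 CPM in control and 135 and 131 CPM in the libraries labelled shFer. The groups of PSMB5 overlapped (log2 fold change 0.16, adjusted p = 0.624). Without control replicate 2 its value was -0.055, and without control replicate 1 it was 0.38. Of the structural beta genes, PSMB1 and PSMB3 were at 0.33 and 0.36 and PSMB4 at 0.09. PSMB2 was the beta gene with the lowest fold change. It had 246 and 226 CPM in control and 194 and 195 CPM in the libraries labelled shFer (log2 fold change -0.28 ± 0.12 SE, adjusted p = 0.250), with no overlap. Per transcript length PSMB4 was the highest of the ring (mean 322 RPKM), and PSMB2 had the lowest mean (79.7 RPKM), also per deposited length. In control replicate 2, however, PSMB5 lay below PSMB2 (78.8 against 83.7 RPKM).

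**Figure D2:**
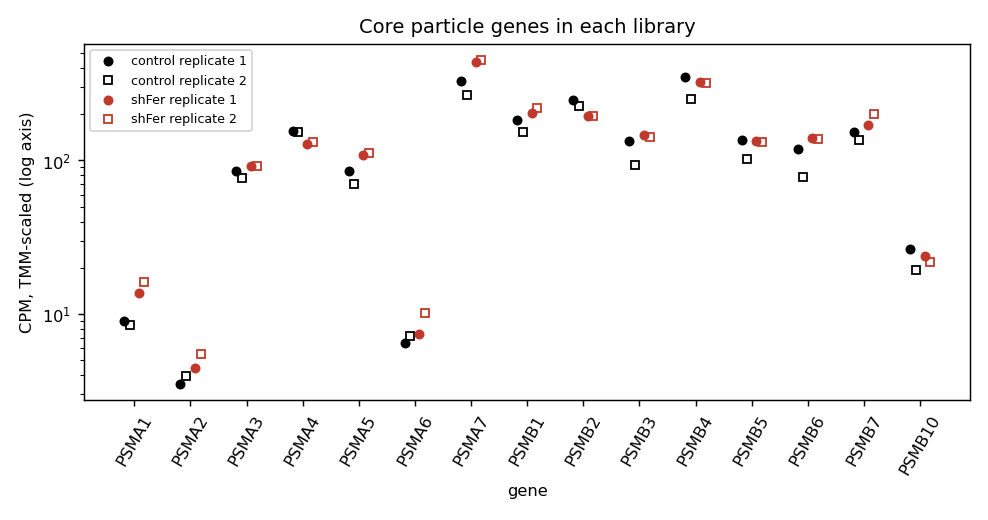
Level of each tested core particle gene and of PSMB10 in each library, in TMM-scaled CPM on a log axis (black, control; red, labelled shFer; filled circles, replicate 1; open squares, replicate 2). For PSMB6, control replicate 2 lies at 77.7 CPM and the other 3 libraries between 118 and 140 CPM, and for PSMA7 both red points lie above both black ones.

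Of the immunoproteasome genes, only PSMB10 could be tested. PSMB10, the inducible counterpart of PSMB7, had 26.6 and 19.5 CPM in control and 23.9 and 21.7 CPM in the libraries labelled shFer. The libraries labelled shFer lay between the controls, and PSMB10 did not pass the test (log2 fold change -0.01, 95% interval -0.41 to 0.38, adjusted p = 0.980). Of its representative transcript, 45.3% overlaps another gene. As a share of the counts of PSMB10 and PSMB7 together, PSMB10 made up 14.8% (95% Wilson interval 13.7 to 15.98) and 12.5% (11.5 to 13.7) in control. It made up 12.3% (11.3 to 13.3) and 9.73% (8.999 to 10.5) in the libraries labelled shFer. The intervals, which cover counting error only, overlapped between control replicate 2 and replicate 1 of those labelled shFer. The difference of the means was -2.67 percentage points, with p = 0.333 in an exact two-sided permutation test over libraries, the smallest value that 2 against 2 allows.

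**Figure D3:**
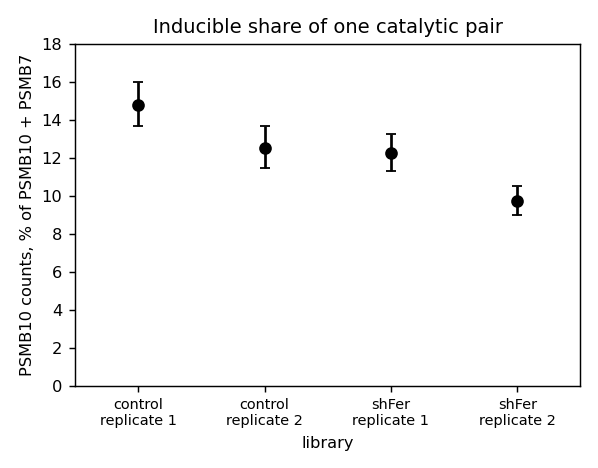
Counts of PSMB10 as a percent of the counts of PSMB10 and PSMB7 in each library (y axis), with 95% Wilson intervals that cover counting error only. The 2 controls lie at 14.8% and 12.5%, and the 2 libraries labelled shFer at 12.3% and 9.73%.

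PSMB8 and PSMB9 lie beside each other on chromosome 6, within the major histocompatibility complex, and could not be read from this table. PSMB8 was listed at 0 in all 4 libraries, and PSMB9 had 3 and 1 counts in control and 2 and 0 counts in the libraries labelled shFer. Of the other 69 protein-coding genes within 1 Mb of the pair, 44 (63.8%) had a total of 10 counts or fewer over the 4 libraries, with a median total of 1. On the rest of chromosome 6 this held for 297 of 938 genes (31.7%), with a median of 288. Genes that every cell uses were at or near 0 there too. RPS18, for a protein of the ribosome, had 0, 1, 1 and 2 counts, and RING1, for a Polycomb protein, was listed at 0. The peptide transporter gene TAP1, which neighbours both, was also listed at 0. The region and these neighbours were chosen after their values were seen, and PSMB8 and PSMB9 are given here only as listed. PSMB11, the subunit of the thymus, had 0 and 1 counts in control and 6 and 5 in the libraries labelled shFer, too few to be tested.

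The ATPases of the base were all above 0, and 4 of the 6 were below 0.10. The 6 PSMC genes had a median log2 fold change of 0.07, and of 0.21 without control replicate 1. PSMC5 was the highest, with 256 and 195 CPM in control and 287 and 302 CPM in the libraries labelled shFer (log2 fold change 0.38 ± 0.14 SE, adjusted p = 0.204). PSMC6 had 41.0 and 44.0 CPM against 49.1 and 53.7 CPM (log2 fold change 0.27, adjusted p = 0.323). For both genes the groups did not overlap. Leaving out control replicate 1 gave 0.59 for PSMC5 and leaving out control replicate 2 gave 0.18. PSMC3 had 334 and 247 CPM in control and 296 and 308 CPM in the libraries labelled shFer, which lay between the controls, and its log2 fold change was 0.06 (adjusted p = 0.889). Without control replicate 2 the value for PSMC3 was -0.17, and without control replicate 1 it was 0.28. PSMC1, PSMC2 and PSMC4 were at 0.08, 0.06 and 0.06, and 82.1% of the representative transcript of PSMC1 overlaps NRDE2. Of the representative transcript of PSMC5, 27.2% overlaps another gene.

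The remaining base genes, which scaffold the particle and bind ubiquitin, went both ways. ADRM1, a ubiquitin receptor that also docks the deubiquitinase UCHL5, had 296 and 230 CPM in control and 219 and 198 CPM in the libraries labelled shFer. The groups did not overlap, although the nearer edges lay close, and the value in log2 was -0.33 ± 0.14 (SE, adjusted p = 0.261). Of the representative transcript of ADRM1, 24.1% overlaps other genes. PSMD4, another ubiquitin receptor, had 196 and 159 CPM in control against 210 and 210 CPM (log2 fold change 0.24, adjusted p = 0.381). Without control replicate 1 ADRM1 was at -0.15 and PSMD4 at 0.39, and without control replicate 2 they were at -0.53 and 0.08. PSMD2 and PSMD1, the large scaffold subunits, were at 0.18 and -0.01.

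The lid had a median log2 fold change of 0.01, close to that of all tested genes, with 4 of 8 genes above 0. It was 0.11 without control replicate 1 and -0.025 without replicate 2 of those labelled shFer. PSMD14, the metalloprotease that cuts ubiquitin chains from substrates, had 73.6 and 68.8 CPM in control and 89.0 and 93.4 CPM in the libraries labelled shFer. The groups did not overlap, and the value in log2 was 0.36 ± 0.13 (SE; adjusted p = 0.182). PSMD13, a scaffold subunit of the lid, had 110 and 90.7 CPM against 119 and 129 CPM (log2 fold change 0.30, adjusted p = 0.282). PSMD13 was at 0.15 without control replicate 2 and at 0.44 without control replicate 1. PSMD6, at the other end, had 81.3 and 89.6 CPM in control and 75.2 and 75.1 CPM in the libraries labelled shFer (log2 fold change -0.19, adjusted p = 0.490). PSMD3, PSMD7, PSMD8, PSMD11 and PSMD12 lay between -0.12 and 0.20. The highest of these was PSMD7, and 50.4% of its representative transcript overlaps another gene. Taking both rings as the core and base and lid as the regulatory particle, the medians were 0.36 over 14 genes and 0.06 over 18 genes. They were 0.41 and 0.17 without control replicate 1, and 0.20 and 0.04 without control replicate 2. Without replicate 1 of those labelled shFer they were 0.43 and 0.09, and without replicate 2 of those 0.24 and 0.05. The median transcript length of these genes was 1012.5 and 1972.5 bases, and the difference between the 2 medians was not tested.

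Activators and the inhibitor that bind the ends of the core did not pass the test either. PSME1 and PSME2, which form the interferon-inducible activator, had 156 and 127 CPM and 160 and 135 CPM in control. In the libraries labelled shFer they had 176 and 171 CPM and 170 and 178 CPM, with log2 fold changes of 0.30 and 0.24 (adjusted p = 0.286 and 0.373), and for both the groups did not overlap. PSME1 and PSME2 were at 0.13 and 0.098 without control replicate 2, and at 0.45 and 0.36 without control replicate 1. PSME3, which forms the nuclear activator, had 122 and 134 CPM against 114 and 111 CPM (log2 fold change -0.18, adjusted p = 0.479), and PSME4 was at 0.08. PSMF1, an inhibitor of the core, had 202 and 183 CPM in control and 154 and 150 CPM in the libraries labelled shFer. Its groups did not overlap, and the value in log2 was -0.34 ± 0.12 (SE; adjusted p = 0.188).

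Assembly factors of the core and of the base also showed values on both sides. POMP, which matures nascent cores, had 76.6 and 62.1 CPM in control and 81.7 and 92.0 CPM in the libraries labelled shFer (log2 fold change 0.32 ± 0.15 SE, adjusted p = 0.282). PSMG3, a chaperone of the alpha ring, had 35.5 and 25.2 CPM against 44.0 and 42.1 CPM (log2 fold change 0.50, adjusted p = 0.176), and its partner PSMG4 was at 0.28. PSMG1 and PSMG2, the other chaperone pair, were at -0.18 (adjusted p = 0.560) and -0.08. PSMG1 had 44.3 and 38.2 CPM in control and 35.4 and 37.4 CPM in the libraries labelled shFer. Without control replicate 2, POMP was at 0.16, PSMG3 at 0.25 and PSMG1 at -0.30. Without control replicate 1 they were at 0.48, 0.77 and -0.07. PSMD5, a chaperone of the base that is not part of the finished particle, was the lowest of all 46. It had 52.5 and 55.7 CPM in control and 40.4 and 38.9 CPM in the libraries labelled shFer (log2 fold change -0.45 ± 0.13 SE, adjusted p = 0.128), and the groups were well separated. Of the other base chaperones, PSMD10 was at 0.22 (32.5 and 29.1 against 34.1 and 37.5 CPM, adjusted p = 0.467) and PSMD9 at 0.05. PSMD10 was at 0.12 without control replicate 2, and 43.8% of the representative transcript of PSMD9 overlaps other genes.

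The fold changes of the members went with transcript length. Across the 46 genes, Pearson's r between the log2 fold change and the log2 length of the representative transcript was -0.44 (Spearman's rho -0.48), and -0.28 with the deposited gene length. These are descriptions across genes that share the same 4 libraries. The 9 members of up to 1000 bases had a median log2 fold change of 0.33, and the 11 of over 3000 bases had one of -0.01. Over all tested genes the medians in these ranges were 0.14 and -0.01, and r was -0.09 over 15329 genes. Among tested genes with an average log2 CPM above 5, the medians in these ranges were 0.19 and -0.03. PSMA4, PSMB2, PSMF1 and PSMD5 were among the longer transcripts (2701 to 4411 bases) and had negative values. PSMA5, at 3729 bases, was at 0.50. Shorter members were negative too, among them ADRM1 (1530 bases, -0.33), PSMD6 (1430 bases, -0.19) and PSME3 (998 bases, -0.18). In the length ranges that hold these genes, 8 of 11, 8 of 10 and 8 of 9 members were above 0. The control libraries differed with length too: the log2 difference of replicate 2 from replicate 1 was larger for longer transcripts, with r = 0.56 over the members and 0.35 over all tested genes. The part of length in the differences between members was not tested. With trends on length and GC content removed from each library, the median of the members was 0.11. It was 0.23 for members of up to 1000 bases and 0.02 for those of over 3000 bases. For the core it was 0.25 and for the regulatory particle 0.06. The test then called 6 members higher (PSMA1, PSMA7, PSMB6, PSMC5, PSMD14 and PSMG3) and 2 lower (ADRM1 and PSMD5), where 4.1% of all genes were called higher and 5.23% lower.

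**Figure D4:**
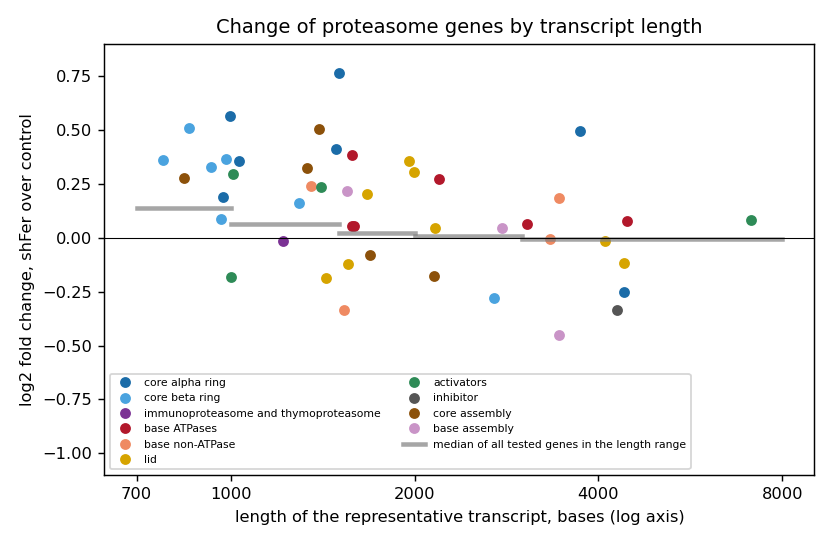
Log2 fold change of each tested proteasome gene (y axis) against the length of its representative transcript in bases (log x axis), coloured by role; grey bars give the median of all tested genes in each length range. Members of up to 1000 bases lie mostly above 0 and above the grey bar (0.14), and those of over 3000 bases lie on both sides of it (-0.01).

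All members together took 0.558% and 0.482% of the control counts and 0.629% and 0.640% of those labelled shFer. Off the mitochondrial chromosome the shares were 0.672% and 0.598% against 0.696% and 0.706%. Control replicate 2 was the lowest library on both scales. On the TMM scale the summed level was 5947 and 5077 CPM in control and 5936 and 6060 CPM in the libraries labelled shFer, so that control replicate 1 lay between the latter 2. With the mitochondrial chromosome left out of the fit the median of the members was 0.16.

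In 4 lists of other genes of the pathway (18, 5, 4 and 9 genes tested), 1 gene passed the test, where 0.646% of all tested genes did. RPS27A, which encodes ubiquitin fused to a protein of the ribosome, rose from 304 and 244 CPM in control to 451 and 545 CPM in the libraries labelled shFer. In log2 this was 0.86 ± 0.15 (SE; adjusted p = 0.0354), and the call was lost without replicate 2 of those labelled shFer. RPS27A has processed copies in the genome, so its counts are uncertain. Of the other 4 ubiquitin and E1 genes none passed. Of 18 partners and ubiquitin shuttles 0 passed, with a median of -0.01. The unfoldase VCP was at 0.32 (427 and 391 against 517 and 509 CPM, adjusted p = 0.180) and AKIRIN2, which brings proteasomes into the nucleus, at -0.38 (adjusted p = 0.221).

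The genes that control proteasome transcription did not pass the test. NFE2L1, given because it binds the motif searched above, had 333 and 362 CPM in control and 315 and 319 CPM in the libraries labelled shFer (log2 fold change -0.13, adjusted p = 0.592). NFE2L2, of the same family, was at -0.31 (adjusted p = 0.291) and NGLY1, the glycanase that processes NFE2L1, at 0.18 (adjusted p = 0.576). NFE2L2 was at -0.17 without control replicate 2, and at -0.47 without control replicate 1, where NGLY1 was at 0.08. The 13 tested members with the motif printed above had a median log2 fold change of 0.05, with 7 above 0. The 27 without it had one of 0.16, with 19 above 0. PSMA7, PSMB1, PSMB6, PSMB7, PSMD4 and PSMG3 had no promoter in the table and are in neither group. They were at 0.57, 0.33, 0.51, 0.37, 0.24 and 0.50, so these medians do not cover all tested members. Of the 5 genes whose windows are printed, PSMB3 was at 0.36, PSME1 at 0.30, PSMD3 at 0.05, PSMD12 at -0.12 and ADRM1 at -0.33, and none passed the test. In the antigen processing list 9 of 12 genes were tested and 0 passed, with a median of -0.03. NLRC5, which drives class I genes, was at 0.33 (adjusted p = 0.224) and B2M, the light chain of class I molecules, at -0.29 (adjusted p = 0.197).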

How the data were processed

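The authors deposited 1 table of raw read counts per gene for 4 libraries of polyadenylated RNA, with gene lengths and symbols, per the file headers. HISAT2, featureCounts and DESeq2 and the builds hg19 and mm10 are named, without versions or roles, per the submitters' processing notes; neither strand setting nor annotation release is stated in these sources. Of 39635 rows, 1 held no values. The test used edgeR 4.0.16 (R 4.3.3): filterByExpr left 15336 genes, TMM factors scaled the libraries, and the quasi-likelihood test (two-sided, 2 residual degrees of freedom, no block) was Benjamini-Hochberg adjusted over every tested gene, with a threshold of 0.05. DESeq2 1.42.0 was an alternative. SE comes from the fold change and its test statistic. Transcript lengths (the APPRIS principal isoform where annotated), GC content and exon overlaps came from GENCODE release 29, another build than hg19, which gave values for 15329 tested genes; its coordinates served only to find overlaps and neighbours and are not printed. The column of replicate 1 of shFer has a shortened name and was matched as the only such library with that number. Members and lists were chosen with earlier results of these data known. By rule, members were named if they passed the test, held a catalytic place, had the 2 smallest p or the highest or lowest fold change of a class, or were not tested; others were chosen after their values were seen. The alternatives were other scalings and filters, DESeq2, the replicate number as a block, each library left out, the mitochondrial chromosome left out, and length and GC trends removed (lowess, span 0.3).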

Additional observations from a re-analysis of the deposited data

How the results depend on the processing

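The replicate numbers share no stated culture or day, and the main test used no block. Deviations of same-numbered libraries from their group means correlated at 0.04 over 15336 genes. With 2 libraries a group, this value cannot show whether a culture or day was shared. With the replicate block the test called 990 genes and 5 members (PSMA1, PSMA5, PSMA7, PSMB6 and PSMG3), against 99 and 0. Library totals alone called 443 genes and 3 members and moved the member median to 0.34, where that of all genes was 0.18. No filter on low counts gave 993 and 4, DESeq2 583 and 3, and removed length and GC trends 1429 and 8. Leaving out 1 library gave 56 to 4734 genes, 0 to 29 members, and a member median of 0.094 to 0.27; the lone library left in a group is assumed to vary like the other group. DESeq2 size factors, a filter of 5 CPM in 2 libraries and no mitochondrial chromosome called 132, 117 and 76 genes and 0 members, with medians of 0.15 to 0.16. Among pathway genes, where 1 was called, library totals alone, no filter and DESeq2 gave 2, removed trends gave 3, and leaving out 1 library gave 0 to 19; these pathway counts were added after seeing the data. The pathway lists held 18, 5, 4 and 9 genes tested in the main test. With removed trends, 4.1% of all genes were called higher and 5.23% lower. The largest pathway count came without control replicate 1, where the count over all genes was also the largest. Pathway counts were not tested against those of all genes, so their rise is not specific to the pathway on these values. The PSMB10 share differed by -3.94 to -1.41 percentage points with 1 library left out. With 1 library left out PSMB5 ranged from -0.055 to 0.38, PSMB10 from -0.25 to 0.22 and PSMC3 from -0.17 to 0.28. Their signs turned without control replicate 2 (PSMB5, PSMC3) and, for PSMB10, with library totals alone (0.15), without control replicate 1 (0.22) and without replicate 2 labelled shFer (0.05). None of these turned values passed the threshold. For some other named members, shifts with 1 library left out stand beside their values, and the rest shifted too. The cause of these changes was not tested. With 2 libraries a group, the 95% intervals of the tested members' log2 fold changes were wide, and an absent call does not show equal levels.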
